A study of Homo sapiens with 6 samples.

Results

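Proteasome genes were followed after knockdown of OCRL, a phosphoinositide phosphatase of endosomes, in the human line HK2, which was derived by immortalisation of cells of the kidney's proximal tubule. Members were the genes whose symbol starts with PSMA, PSMB, PSMC, PSMD, PSME, PSMF or PSMG and a digit, without PSMB8 and PSMB9, each represented by its brightest probe set that carries a single symbol. This gave 39 genes out of 11963 with such a probe set. Of these, 37 are subunits, activators, inhibitors or assembly factors of the proteasome. The other two, PSMC3IP and PSME3IP1, share the letters and are no subunits. By particle, 14 genes belonged to the core, 8 to the base, 6 to the lid and 3 to the activators. There were also 1 inhibitor, 2 assembly chaperones of the core and 3 of the base. A further 5 probe sets paired a proteasome symbol with a second gene and were not used.

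The 3 control arrays came from cells given a non-targeting siRNA, and the 3 other arrays from cells given an OCRL siRNA. Cells of both groups were transfected with Dharmafect 4 at 30% confluence, kept in DMEM F12 with insulin, transferrin and selenium, and lysed after 96 h. The labels call the 3 samples of a group independent experiments. The labels name 1 OCRL siRNA treatment and no second reagent or rescue, so effects of the reagent and of lower OCRL cannot be told apart.

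The proteasome is the protease that degrades proteins tagged with ubiquitin. Its core is a barrel of stacked rings, with alpha subunits that gate the entry and beta subunits that hold the active sites. A regulatory particle caps the barrel. Its base unfolds substrates with a ring of ATPases, and its lid removes the ubiquitin chain. Interferon replaces the catalytic beta subunits with PSMB8, PSMB9 and PSMB10, which gives the immunoproteasome, and induces the activator built from PSME1 and its partner. In kidney tubule cells, as elsewhere, the proteasome is an abundant housekeeping machine.

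Values are log2 probe set intensities normalised by the authors, and each difference is the mean of the OCRL siRNA arrays less that of the control arrays on this scale. A gene was called when its adjusted p in limma, with Benjamini-Hochberg adjustment over 22215 probe sets, was under 0.05, and "rose" and "fell" refer to called genes. OCRL fell to 24.6% of its control level by its brighter probe set and to 49.7% by the dimmer one. The medians of the OCRL siRNA arrays lay 0.046 above those of the controls, so median centring lowers every difference by this amount. In control cells the epithelial keratin gene KRT18 was at 13.34 ± 0.08 (SD, n = 3) and the kidney transcription factor gene PAX8 at 11.21 ± 0.02. Of the other kidney epithelial markers, CDH6 (12.26 ± 0.02), KRT8 (11.44 ± 0.10), EPCAM (11.43 ± 0.03) and KRT19 (9.46 ± 0.07) were high as well. PAX2 (5.89 ± 0.09) and CDH1 (4.62 ± 0.19) were low, with CDH1 below the lower quartile of all probe sets. Of 7 measured proximal tubule markers, SLC4A4 (10.93 ± 0.04), DPP4 (9.44 ± 0.07), MME (7.35 ± 0.06) and CUBN (5.45 ± 0.09) lay above 5.27, the lower quartile of all probe sets, in control cells. ANPEP, AQP1 and the megalin gene LRP2 (3.99 ± 0.04) lay below it. Markers of other cell types also lay above 5.27, namely LUM (9.23 ± 0.22), COL1A1 (7.67 ± 0.07), PDGFRB, DCN, CD3E, CD14, VWF and TEK. PECAM1, KDR, CDH5, PTPRC, COL3A1 and COL1A2 lay below it. This level therefore does not separate tubule markers from those of other cell types. The tubule markers moved with the groups, since DPP4, MME and ANPEP rose by 0.68, 0.61 and 0.56 and SLC4A4 fell by 1.08 on the log2 scale. Of 8 kidney epithelial markers, 5 fell. Of 5 endothelial, 3 leukocyte and 6 fibroblast markers, limma called LUM of fibroblasts, which fell, and no other, with 2 endothelial markers and LUM at an unadjusted p under 0.05. The part of these markers in the results was not tested. The labels describe independent experiments, so the p-values measure the spread between them.

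The promoters of 4 genes are given because these genes carry the changes described next. PSMB10 and PSME1 are the proteasome genes that rose, and PSMD3 and PSMD6 are the lid genes that fell with the smallest p. Each sequence is the 250 bases before the gene's start in RefSeq (GRCh38.p14), written from 5′ to 3′ along the gene. Capitals mark matches to 3 motifs searched on both strands. These were the antioxidant response element read by the NFE2L1 and NFE2L2 factors (TGACNNNGC), the CCAAT box (CCAAT) and the interferon-stimulated response element (GAAA followed after any 2 bases by GAAA). The antioxidant pattern is a loose form of that site. No capitals overlap between motifs in these 4 windows.

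PSMB10, chr16:67936851-67937100, minus strand: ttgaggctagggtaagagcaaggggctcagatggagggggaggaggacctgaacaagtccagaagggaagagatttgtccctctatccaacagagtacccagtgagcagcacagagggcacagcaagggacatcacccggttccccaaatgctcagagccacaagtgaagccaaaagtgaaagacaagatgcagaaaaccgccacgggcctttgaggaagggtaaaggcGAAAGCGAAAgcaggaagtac

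PSME1, chr14:24135944-24136193, plus strand: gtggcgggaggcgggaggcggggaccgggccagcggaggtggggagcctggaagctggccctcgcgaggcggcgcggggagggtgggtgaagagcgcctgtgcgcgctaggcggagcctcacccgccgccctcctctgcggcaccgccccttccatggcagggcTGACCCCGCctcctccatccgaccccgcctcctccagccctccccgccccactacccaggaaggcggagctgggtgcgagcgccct

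PSMD3, chr17:39980557-39980806, plus strand: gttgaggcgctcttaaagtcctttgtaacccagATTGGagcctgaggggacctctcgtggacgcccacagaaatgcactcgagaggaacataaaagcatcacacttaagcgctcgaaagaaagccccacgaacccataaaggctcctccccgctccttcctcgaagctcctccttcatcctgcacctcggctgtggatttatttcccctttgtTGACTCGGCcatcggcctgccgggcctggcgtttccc

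PSMD6, chr3:64023495-64023744, minus strand: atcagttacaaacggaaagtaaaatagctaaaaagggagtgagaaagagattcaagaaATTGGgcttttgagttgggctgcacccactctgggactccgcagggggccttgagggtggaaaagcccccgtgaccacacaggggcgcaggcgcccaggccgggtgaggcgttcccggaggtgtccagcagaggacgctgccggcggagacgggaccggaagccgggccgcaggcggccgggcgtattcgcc

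The PSMB10 window held the interferon-stimulated pattern 21 to 12 bases before the start. The PSME1 window held the antioxidant pattern, PSMD3 held it together with a CCAAT box, and PSMD6 held a CCAAT box. A RefSeq promoter was found for 34 members, and PSMA7, PSMB1, PSMB6, PSMB7 and PSMD4 had no entry. The interferon-stimulated pattern was present for 3 of the 34, PSMA4, PSMB4 and PSMB10, which is 8.82% against 3.57% of 9563 measured genes. The antioxidant pattern was present for 10 of 34, or 29.4% against 16.0%, and the CCAAT box for 17 of 34, against 42.4% of measured genes. Of the 7 members that fell, 1 held the antioxidant pattern and 4 the CCAAT box. These matches describe letters in a window and were not tested as sites.

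Over all members, 3 genes rose, 7 fell and 29 were not called. The share called was 25.6%, against 26.0% of all genes, but members were brighter than most genes. At a mean log2 value of at least 12 the share called was 20% of 25 members, against 30.4% of genes. At 10 to 12 it was 27.3% of 11 members, against 39.6% of genes. These gaps were not tested. Separated by direction, the background over all genes was 15.5% higher and 10.5% lower. At an unadjusted p under 0.05 there were 16 members, against 38.5% of all genes. The median difference of the 39 members was -0.04, and that of all genes was 0.0005. In the core 1 of 14 genes was called, PSMB10, which rose. In base and lid 6 of 14 genes fell and 0 rose, with 4 differences above 0. The contrast between the particles was not tested. All values by array are drawn in the plot of members by particle.

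**Figure D1:**
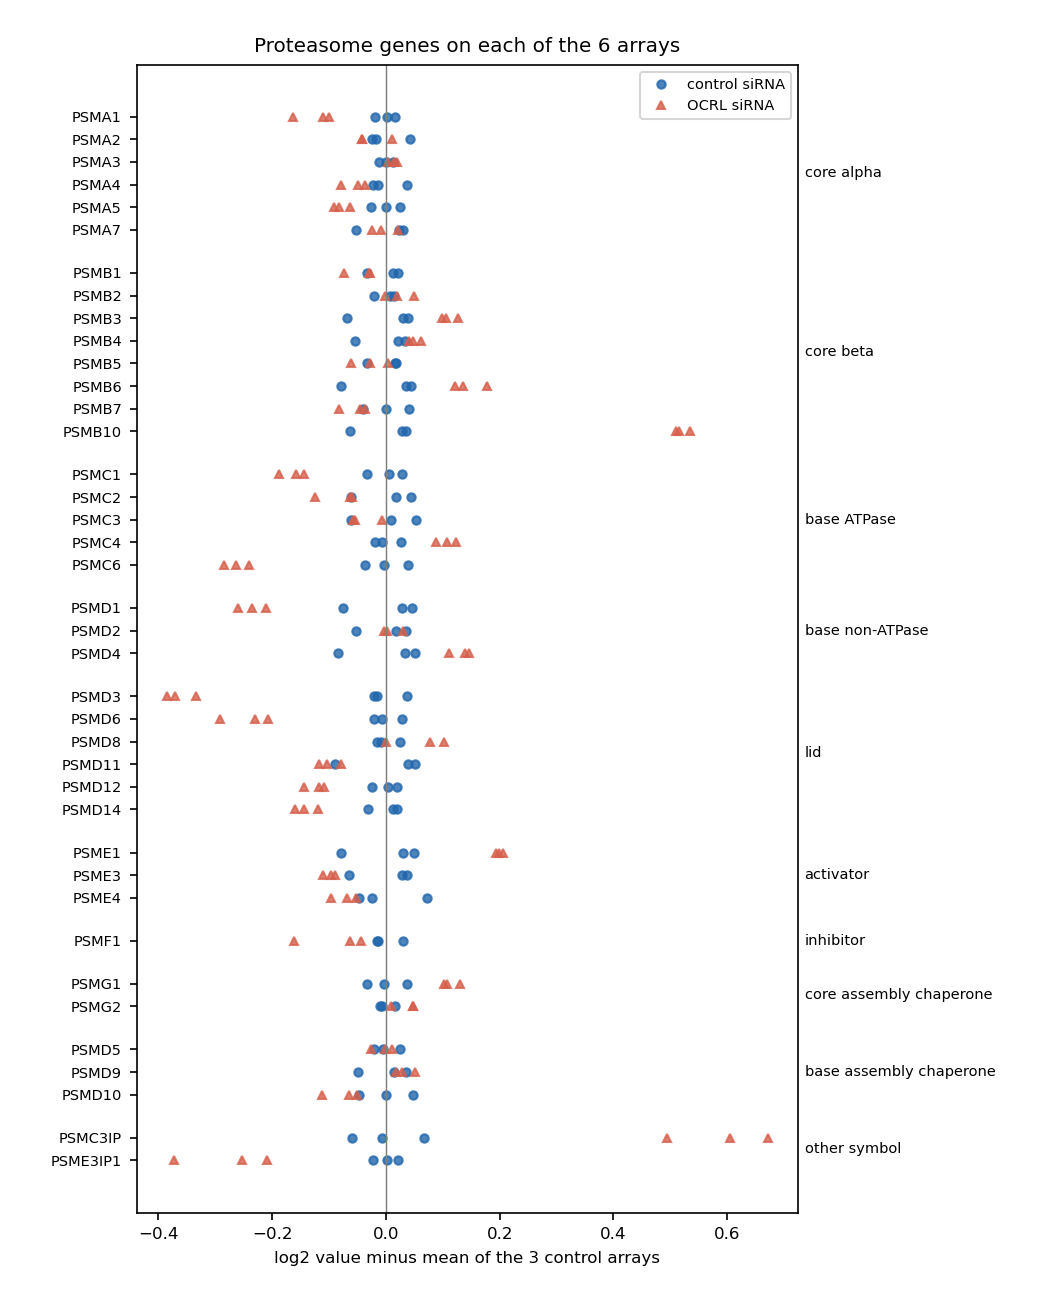
Each row is 1 of the 39 genes and each point 1 array, placed on the horizontal axis by its log2 value minus the mean of the 3 control arrays (circles, control siRNA; triangles, OCRL siRNA). PSMB10 and PSMC3IP lie far to the right in all 3 OCRL siRNA arrays, PSMD3 lies farthest to the left among the subunits, and most core genes lie close to 0.

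By their brightest probe sets, transcripts of the constitutive core stayed close to control. The 13 core genes other than PSMB10 had differences between -0.12 (PSMA1) and 0.14 (PSMB6), and limma called 0 of them, with 2 at an unadjusted p under 0.05. These 2 were PSMA1, a subunit of the alpha ring, and PSMB6, the caspase-like active site. Averaged over these 13 genes and set against the control mean, the OCRL siRNA arrays lay at -0.004, -0.008 and -0.006, within the control arrays at -0.020, 0.001 and 0.019. This average joins shifts in both directions. Over the 6 alpha genes alone, the OCRL siRNA arrays lay at -0.050, -0.046 and -0.042, below the control arrays at -0.002, -0.005 and 0.006. Groups were without overlap in 6 of the 13 genes, against 44.9% of all genes. All 13 had a mean log2 value of at least 12, where groups were without overlap in 582 of 882 genes. That gap was not tested. The 6 alpha genes had a median difference of -0.04 and the 8 beta genes, PSMB10 included, one of 0.04.

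The 3 catalytic subunits of the constitutive core were not called, and their 95% intervals lay between -0.16 and 0.26. PSMB5, the chymotrypsin-like active site, was at 12.60, 12.55 and 12.60 in control cells and at 12.59, 12.52 and 12.55 in knockdown cells. The groups overlapped, and the difference of -0.03 had a 95% interval of -0.13 to 0.07. PSMB7, the trypsin-like active site, was at 13.47, 13.51 and 13.55 against 13.47, 13.43 and 13.46, with a difference of -0.06 (95% interval -0.16 to 0.05). Its groups overlapped as well. PSMB6 was at 12.70, 12.81 and 12.82 in control cells and at 12.90, 12.95 and 12.91 in knockdown cells. All knockdown arrays lay above the controls, control replicate 1 was the lowest, and the difference of 0.14 (95% interval 0.02 to 0.26) missed the threshold by limma (adjusted p = 0.0864). PSMB6 was called higher with trend and robust settings (adjusted p = 0.00635).

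The remaining beta genes were PSMB1, PSMB2, PSMB3 and PSMB4, structural or non-catalytic subunits, with differences of -0.04, 0.02, 0.11 and 0.05. In PSMB3 and PSMB4 all knockdown arrays lay above all control arrays, and neither was called. The second probe set of PSMB4, at a mean of 13.24, had a larger difference of 0.17. Its groups did not overlap either, and it was not called (adjusted p = 0.0774, limma). In the alpha ring, PSMA1 was at 13.26, 13.24 and 13.28 in control cells and at 13.15, 13.16 and 13.10 in knockdown cells. These groups did not overlap, and the difference of -0.12 was not called (adjusted p = 0.0773). PSMA1 was called lower with array weights (adjusted p = 0.0418), dim probe sets left out (0.0411), median centring (0.0269) and trend and robust settings (0.00276). PSMA2, PSMA3, PSMA4, PSMA5 and PSMA7 had differences of -0.02, 0.01, -0.06, -0.08 and -0.004. Second probe sets of PSMA2 and PSMA7 had differences of -0.11 and -0.10 and were not called. Groups did not overlap in 24 of the 39 members, against 44.9% of all genes (25.1% higher and 19.8% lower). The share was higher among bright genes. At a mean log2 value of at least 12 it was 14 of 25 members against 582 of 882 genes. At 10 to 12 it was 7 of 11 members against 1445 of 2159 genes.

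PSMB10, the interferon-induced subunit that takes the place of PSMB7 in the immunoproteasome, was the exception in the core. It was at 10.26, 10.35 and 10.36 in control cells and at 10.86, 10.83 and 10.84 in knockdown cells. The knockdown arrays agreed closely, and the lowest of them lay well above the highest control. PSMB10 rose 1.43-fold (log2 difference 0.52, SE 0.046, adjusted p = 4.32e-04, limma), and the call was kept in each of its 16 alternative settings. PSMB8 and PSMB9, the other immunoproteasome subunits, which are not members, rose as well. PSMB8 rose 1.60-fold, from 10.13 ± 0.04 to 10.81 ± 0.002 (log2 difference 0.68, SE 0.041), and PSMB9 2.39-fold, from 9.31 ± 0.12 to 10.57 ± 0.05 (1.26, SE 0.068). The leukocyte markers PTPRC, CD14 and CD3E had means of 4.15 ± 0.13, 5.77 ± 0.24 and 6.22 ± 0.11 in control cells and of 4.09 ± 0.03, 5.74 ± 0.14 and 6.05 ± 0.15 after knockdown, and none was called. Their part in the rise of these subunits was not tested.

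The base, the part of the regulatory particle that unfolds substrates, had 3 of 8 genes lower and 0 higher by limma. Among all genes 10.5% were lower and 15.5% higher. At an unadjusted p under 0.05 there were 5 base genes, against 38.5% of all genes. These were the 3 called genes and, with higher values after knockdown, PSMC4 and PSMD4. PSMC6, an ATPase of the ring, was at 13.05, 13.01 and 12.97 in control cells and at 12.75, 12.72 and 12.77 in knockdown cells. The groups were clearly apart, and PSMC6 fell by 16.7% (log2 difference -0.26, SE 0.043, adjusted p = 0.00539). PSMC1, another ATPase, was at 12.83, 12.87 and 12.89 against 12.72, 12.67 and 12.70. It fell by 10.7% (log2 difference -0.16, adjusted p = 0.0316), but the call was lost when any array other than control replicate 1 was left out (adjusted p = 0.0671 to 0.108). PSMD1, the large scaffold subunit that docks a ubiquitin receptor, was at 12.17, 12.30 and 12.28 against 12.01, 12.04 and 11.99. It fell by 15.04% (log2 difference -0.24, SE 0.049, adjusted p = 0.0147). That call was lost without control replicate 2 or 3 or OCRL siRNA replicate 3 (adjusted p = 0.0555 to 0.0598). The second probe set of PSMD1 fell by 20.2% and was called with each array left out.

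The remaining base genes went both ways and were not called. The ATPase genes PSMC2, PSMC3 and PSMC4 had differences of -0.08, -0.04 and 0.11. In PSMC4 all knockdown arrays lay above all control arrays (adjusted p = 0.110, limma). PSMD2, the other large scaffold, was at 13.24, 13.33 and 13.31 in control cells and at 13.30, 13.32 and 13.29 in knockdown cells, with a 95% interval of -0.09 to 0.11 around a difference of 0.01. PSMD4, a receptor for ubiquitin chains, was at 12.03, 12.15 and 12.17 against 12.26, 12.25 and 12.23. Its knockdown arrays all lay higher, and its difference of 0.13 was not called (adjusted p = 0.114), except with trend and robust settings (0.0161).

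Among core, base, lid and activators, the lid had the largest share of falls, with 3 of 6 members lower and 0 higher by limma. Among all genes 10.5% were lower and 15.5% higher. At an unadjusted p under 0.05 there were 4 lid members, against 38.5% of all genes. The lid genes PSMD7 and PSMD13 were not among the members. SEM1, a lid subunit with another symbol described below, rose. PSMD3, a structural lid subunit, was at 10.21, 10.21 and 10.27 in control cells and at 9.90, 9.86 and 9.84 in knockdown cells. The groups were far apart relative to their spread. PSMD3 fell by 22.3% (log2 difference -0.36, SE 0.042, adjusted p = 0.00135), and the call was kept in all 16 of its alternative settings. PSMD6, a neighbour of PSMD3 in the lid's horseshoe, was at 12.57, 12.52 and 12.53 against 12.33, 12.25 and 12.31. It fell by 15.5% (log2 difference -0.24, SE 0.044, adjusted p = 0.00834). PSMD14, the lid enzyme that cuts ubiquitin chains off substrates, was at 13.02, 13.07 and 13.06 against 12.91, 12.89 and 12.93. It fell by 9.35% (log2 difference -0.14, adjusted p = 0.0489), at the edge of the threshold. The PSMD14 call was lost when any array other than control replicate 1 was left out (adjusted p = 0.105 to 0.144) and after quantile normalisation (0.0644).

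PSMD8, PSMD11 and PSMD12 completed the lid genes among the members, with differences of 0.06, -0.10 and -0.12, none called. The median difference was -0.13 over the 6 lid genes and -0.06 over the 8 base genes, against -0.01 over the 14 core genes. Averaged over the lid and set against the control mean, the OCRL siRNA arrays lay at -0.135, -0.174 and -0.147, and the control arrays at -0.019, 0.004 and 0.016. The number of members lower was 4 instead of 7 without control replicate 2, control replicate 3 or OCRL siRNA replicate 3. In those fits 1 base gene in place of 3 was lower.

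**Figure D2:**
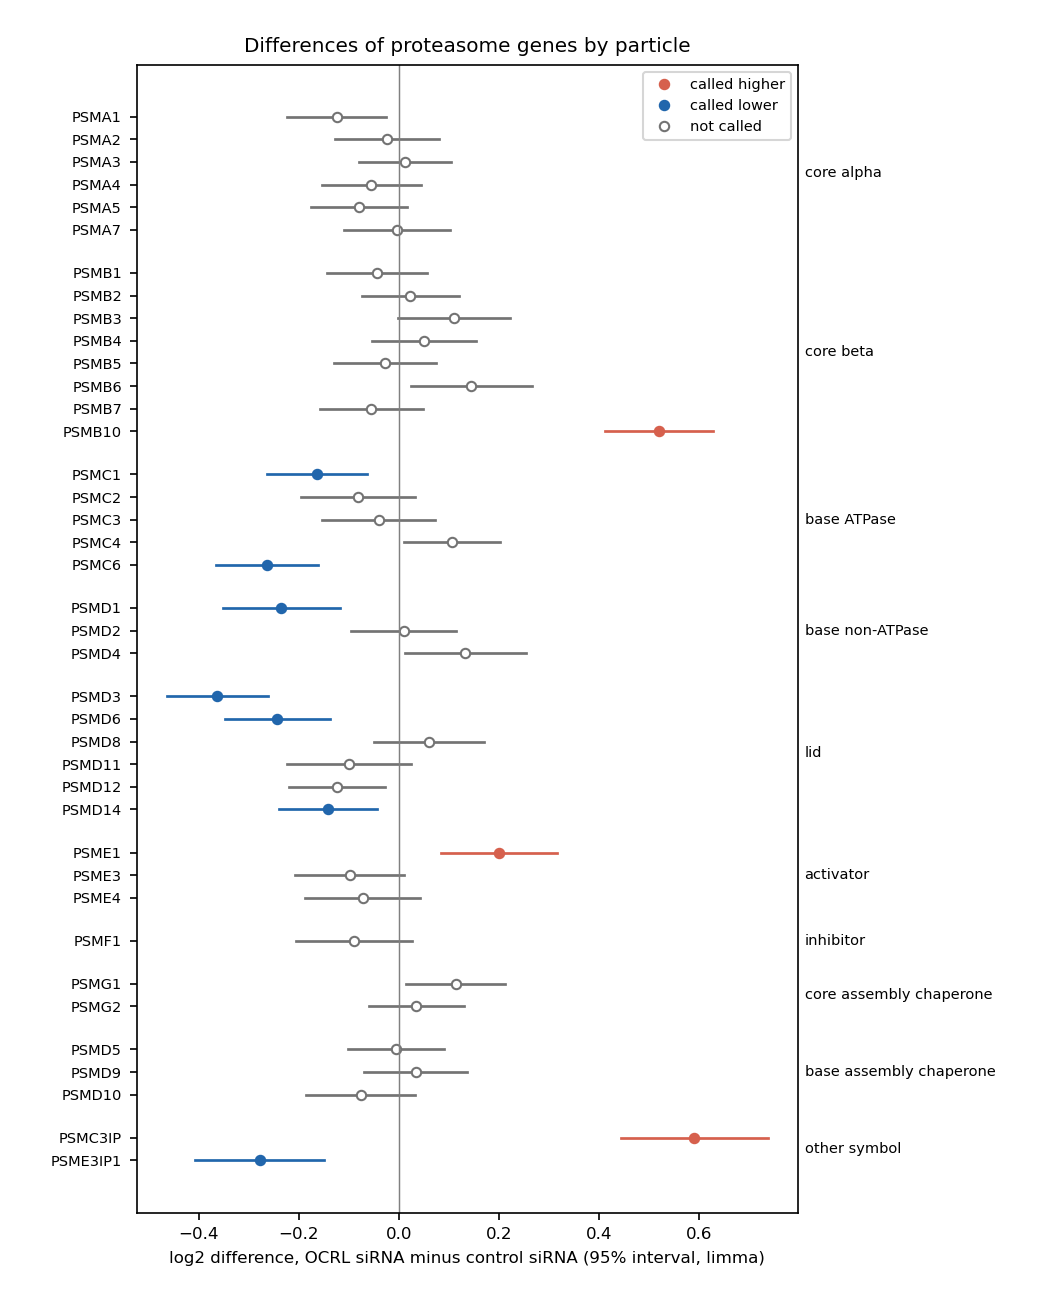
Each row is a gene, with its log2 difference between OCRL siRNA and control siRNA arrays and the 95% interval from limma. Blue filled points are genes called lower, red filled points genes called higher and open points genes not called. The blue points lie in the base and lid rows and at PSME3IP1, and no core gene is blue.

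Beyond the particles, the activators that open the barrel without ATP differed in direction. PSME1, a subunit of the interferon-induced cap, was at 11.76, 11.86 and 11.88 in control cells and at 12.03, 12.03 and 12.04 in knockdown cells. It rose 1.15-fold (log2 difference 0.20, SE 0.049, adjusted p = 0.0271). The call was lost without control replicate 2 or any 1 OCRL siRNA array (adjusted p = 0.0592 to 0.0872) and after median centring (0.0699). PSME3, which forms a cap in the nucleus, and PSME4, a large single-chain cap, had differences of -0.10 and -0.07 and were not called. The inhibitor gene PSMF1 was at 10.75, 10.71 and 10.71 against 10.68, 10.66 and 10.56 (log2 difference -0.09, adjusted p = 0.247).

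Assembly factors were not called. PSMG1, a chaperone that lines up the alpha ring, was at 11.80, 11.76 and 11.73 in control cells and at 11.90, 11.87 and 11.87 in knockdown cells. Its groups did not overlap, and its difference of 0.11 (adjusted p = 0.1004) was called only with array weights (0.0467) and with trend and robust settings (0.0151). Its partner PSMG2 had a difference of 0.03. The chaperones of the base, PSMD5, PSMD9 and PSMD10, had differences of -0.01, 0.03 and -0.08, with PSMD10 at 12.07, 12.12 and 12.17 against 12.01, 12.07 and 12.05. POMP, which matures the core and carries another symbol, was at 13.17 ± 0.01 before and 13.14 ± 0.03 after knockdown (95% interval of the difference -0.12 to 0.07).

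The members that are no subunits both changed. PSMC3IP, a cofactor of recombinases in homologous DNA pairing, was at 9.06, 8.99 and 8.93 in control cells and at 9.67, 9.49 and 9.60 in knockdown cells. It rose 1.51-fold (log2 difference 0.59, SE 0.062, adjusted p = 8.66e-04), more than any proteasome gene among the members, and its dimmer probe set rose 1.34-fold. PSME3IP1, a nuclear protein that binds PSME3, was at 9.13, 9.11 and 9.08 against 8.85, 8.90 and 8.74. It fell by 17.5% (log2 difference -0.28, SE 0.054, adjusted p = 0.0111). Without them, 2 of 37 proteasome genes rose and 6 fell, which is 21.6% called.

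The choice of probe set mattered for several members. Of the 39, 17 had more than 1 probe set. In 18 of the 24 pairs of the brightest and another probe set of a gene, the dimmer one had the larger difference in size. Over all genes this held for 47.0% of 7101 such pairs, and for 56.5% of 886 pairs whose brighter probe set had a mean log2 value of at least 12. The pairs share arrays and genes, and no test was made of them. Of the members not called by their brightest probe set, 6 had another probe set called lower and 1 another called higher, and 0 members were called in both directions. Over all probe sets, 23.1% were called, 13.2% higher and 9.89% lower. In numbers, all probe sets called, higher, were 2939, and all probe sets called, lower, were 2198, which turned to 2274 and 3138 after median centring. These dimmer probe sets are named after their values were seen.

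PSMD12, a structural lid subunit, showed the largest gap. Its dimmer probe set was at 10.77, 10.48 and 10.58 in control cells and at 9.98, 9.90 and 10.03 in knockdown cells. It fell by 35.8% (log2 difference -0.64, SE 0.082, adjusted p = 0.00200), while the brighter one, at 12.44, 12.46 and 12.41 against 12.33, 12.29 and 12.32, was not called (-0.12, adjusted p = 0.0704). PSMD11, also of the lid, was at 8.63, 8.55 and 8.52 against 8.21, 8.18 and 8.08 by its dimmer probe set, a fall of 24.96% (adjusted p = 0.00224). PSMC2, an ATPase of the base, was at 9.35, 9.27 and 9.30 against 8.92, 8.96 and 8.80 by its dimmer probe set, a fall of 24.9% (adjusted p = 0.00264). The dimmer probe sets of PSMD12, PSMD11 and PSMC2 were called with each array left out in turn. The brighter ones were at means of 12.38, 12.19 and 12.77 and had differences of -0.12, -0.10 and -0.08.

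A dimmer probe set of the activator gene PSME4 fell by 19.4% (adjusted p = 0.00264), also with each array left out. Dimmer probe sets of PSMB2 and PSME3 were lower by 11.1% (adjusted p = 0.0257) and 14.5% (0.0424), and 1 of PSMD4 was higher by 0.17 (adjusted p = 0.0326). The PSMB2 call was lost without control replicate 2 or 3 or OCRL siRNA replicate 2 or 3 (adjusted p = 0.0643 to 0.0926). The PSME3 call was lost without any array other than control replicate 3 (0.0611 to 0.116), and the PSMD4 call without any 1 array (0.0502 to 0.113). With the most variable probe set per gene in place of the brightest, 13 members were lower, 5 of them in the lid and 4 in the base. This choice favours probe sets with larger group differences by construction, and over all genes it gave 27.5% called and 11.3% lower. The median of the lid was then -0.30 and that of the core -0.06. Members were bright, with a median level of 12.38 against 7.94 over all genes. Among genes with a mean of at least 12, 30.4% were called, 16.4% higher and 13.9% lower, and 5 of the 25 members at that level were called. The part of brightness in the gaps between probe sets was not tested.

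**Figure D3:**
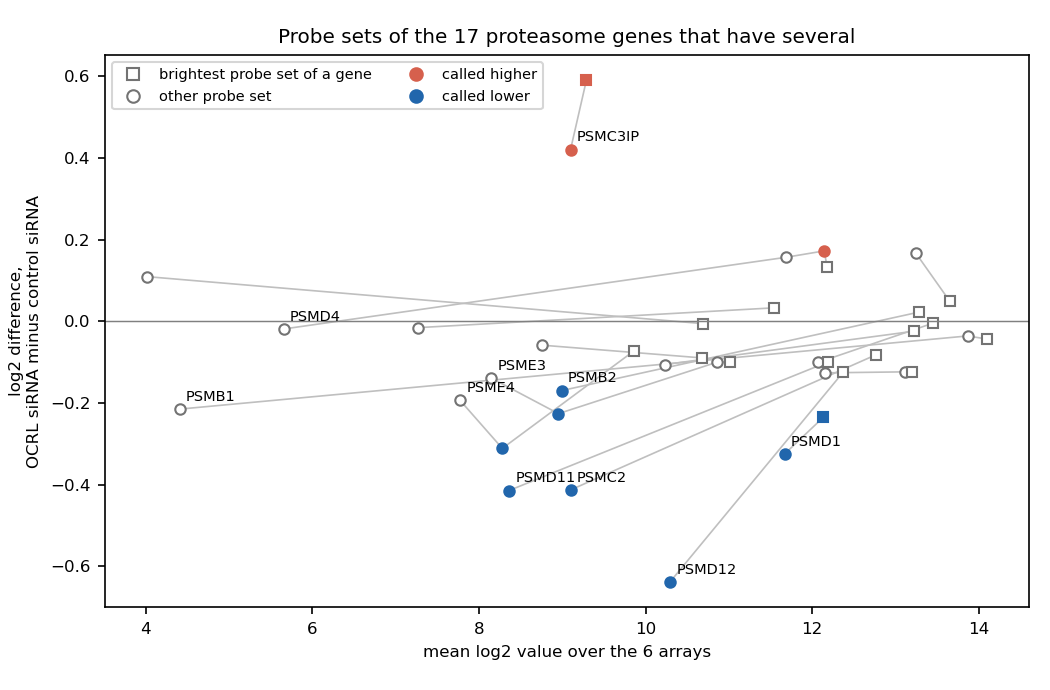
Each point is a probe set of 1 of the 17 members with several, by its mean log2 value over the 6 arrays (horizontal axis) and its log2 difference between the groups (vertical axis). Grey lines join probe sets of a gene, squares mark the brightest and filled points are called; the dimmer probe sets of PSMD12, PSMD11 and PSMC2 lie far below their squares.

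Genes that work with the proteasome under other names were followed in 5 lists. Against 10.5% lower and 15.5% higher among all genes, 4 of 12 measured proteins bound to the proteasome fell and 1 rose. They included the falls of the ubiquitin ligase UBE3C (log2 difference -0.27, SE 0.042, adjusted p = 0.00439), the deubiquitinase USP14 (-0.17, adjusted p = 0.0309) and the thioredoxin-like TXNL1 (-0.16, 0.0283), among others. SEM1, a small lid subunit with another symbol, was at 12.22, 12.21 and 12.24 in control cells and at 12.40, 12.36 and 12.41 in knockdown cells. It rose by 0.17 (SE 0.041, adjusted p = 0.0274), which differs in direction from the called lid members. The SEM1 call was lost after median centring (adjusted p = 0.101). The calls of SEM1, TXNL1 and USP14 were lost without control replicate 2 or 3 or OCRL siRNA replicate 1 or 3, and those of SEM1 and TXNL1 also without OCRL siRNA replicate 2.

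Of 9 measured genes of the immunoproteasome and its inducers, 7 rose and 0 fell by limma, with 8 at an unadjusted p under 0.05 and all 9 differences above 0. Among all genes limma called 15.5% higher and 10.5% lower, with 38.5% at an unadjusted p under 0.05. The median difference of this list was 0.33, against 0.0005 over all genes. Next to PSMB8 and PSMB9, the peptidase genes ERAP2 (log2 difference 0.56, SE 0.041) and ERAP1 (0.54, SE 0.066), which trim peptides for antigen presentation, rose most. ERAP1 missed the threshold when probe sets ending in _s_at, _x_at or _a_at were left out (log2 difference 0.04, adjusted p = 0.736), which put another of its probe sets in place.

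Ubiquitin genes and their conjugating enzymes moved in both directions, 5 of 15 upward and 3 downward, against 15.5% and 10.5% of all genes. UBE2L6, the conjugating enzyme of the ubiquitin-like protein ISG15, rose 2.06-fold, from 8.59, 8.57 and 8.61 to 9.54, 9.64 and 9.71 (log2 difference 1.04, SE 0.053, adjusted p = 6.83e-05). UBE2C, which serves the mitotic ubiquitin ligase, rose by 0.23 and UBE2G1 fell by 0.20 on the log2 scale. UBE2G1 lost its call without control replicate 3 or OCRL siRNA replicate 1 or 2 (adjusted p = 0.0631 to 0.0668). The activating enzyme UBA6 rose by 0.22 by its brightest probe set, and its most variable probe set had a difference of -0.28 that was not called (adjusted p = 0.157).

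Shuttle and unfoldase genes had 2 of 16 higher and 2 lower, a share near the 26.0% called among all genes. The cargo receptor SQSTM1 rose by 0.59 (SE 0.045), and the shuttle UBQLN2 fell by 0.52 on the log2 scale (SE 0.067, adjusted p = 0.00211). The cofactors of the unfoldase VCP moved apart, with NPLOC4 lower by 0.31 (adjusted p = 0.00473) and UFD1 higher by 0.24 (0.0185). The UFD1 call was lost without OCRL siRNA replicate 2 or 3 (adjusted p = 0.0638 and 0.0578).

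NFE2L1 is the transcription factor that raises proteasome genes when proteasome activity is short. Its gene was at 10.51, 10.54 and 10.53 in control cells and at 10.61, 10.59 and 10.64 in knockdown cells, with a difference of 0.09 that was not called (95% interval -0.01 to 0.18, adjusted p = 0.184). The difference was 0.19 by its most variable probe set (adjusted p = 0.0531, limma) and 0.13 by the mean of its probe sets (0.0675). After median centring it was 0.04 (0.556). Of the 15 measured genes of this list, NFE2L1 included, 2 rose and 1 fell, fewer than the 26.0% called among all genes, with no test of that gap. The partner MAFF rose by 0.28 (SE 0.044, adjusted p = 0.00475), NGLY1, which strips sugars from NFE2L1, fell by 0.19 on the log2 scale (0.0217), and the ubiquitin ligase subunit FBXW7 rose by 0.19 (0.0292). NGLY1 lost its call without control replicate 2 or OCRL siRNA replicate 2 or 3, and FBXW7 without any array other than control replicate 1. Over the 5 lists, of 9, 12, 16, 15 and 15 measured genes, 17 genes rose and 10 fell. Among all genes 15.5% rose and 10.5% fell. After median centring 13 rose and 18 fell. With trend and robust settings 20 rose and 18 fell, and with array weights 18 rose and 17 fell. Calls over all probe sets changed between the alternatives as well, from 1274 to 3586 higher and from 1074 to 3138 lower. The list counts were not set against them in each setting. The number that rose was 9 without OCRL siRNA replicate 3 and 11 without OCRL siRNA replicate 2. The number that fell was 4 to 6 without any 1 array other than control replicate 1.

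**Figure D4:**
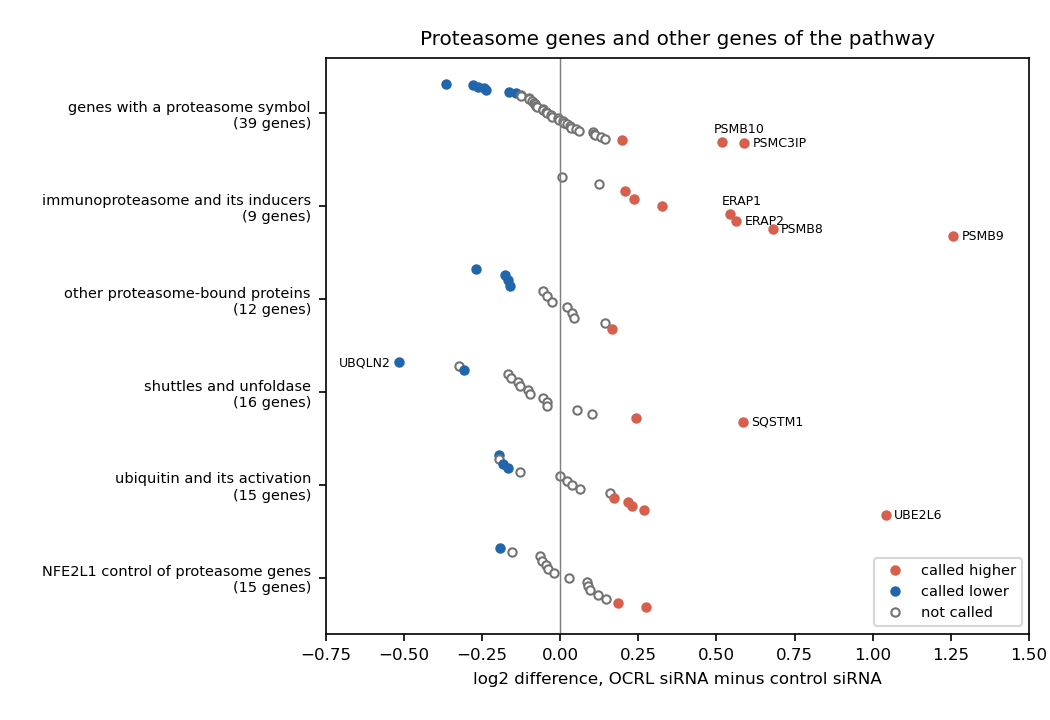
Log2 differences between OCRL siRNA and control siRNA arrays of the 39 members and of the 5 lists of other pathway genes, 1 point per gene (red, called higher; blue, called lower; open, not called). The immunoproteasome list lies to the right of 0, and the other lists and the members spread to both sides.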

How the data were processed

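Biotinylated cRNA from total RNA was measured on Affymetrix arrays in 1 colour, per the labels' protocols. The authors deposited log2 intensities per probe set, normalised with affy and RMA, per the submitters' processing notes. Their versions are not given in the sources used here. RMA as a rule brings arrays to a common distribution, which removes shifts that most transcripts have in common, but the deposited array medians still differed by 0.046 between the groups. The table held 22277 probe sets, of which 62 AFFX controls were left out. The platform annotation gave 1 symbol for 19064, several for 1043 and none for 2108 of the rest.

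Groups were compared over all 22215 probe sets with limma 3.58.1 in R 4.3.3 (two-sided, by lmFit and eBayes, with no term besides group) and Benjamini-Hochberg adjustment. The fit was tested on 10 simulated data sets with 200 changed probe sets each. It recovered 44.2% of 1.25-fold, 91.8% of 1.5-fold and 99.4% of 2-fold changes, and 5.03% of its calls were false. Many changes below 1.25-fold would thus be missed in such data. Far more probe sets were called in the real data, so these shares need not hold there. SE is moderated, SD is over 3 arrays, and the number of arrays limits the precision. An exact permutation test of 3 arrays against 3 cannot go below p = 0.10, which it gave for OCRL. Members, particles and lists were chosen with earlier results of these data known. Every called member is named, with values by array for up to 4 called per class and for fixed genes, and up to 4 called genes per list. The alternatives were the replicate block, each array left out, quantile normalisation, median centring, array weights, trend and robust settings, leaving out dim probe sets (mean under the lower quartile), a minimum of 1.2-fold, probe sets ending in _s_at, _x_at or _a_at left out, and the mean or the most variable probe set per gene. Plots used Python 3.11.15 with matplotlib 3.10.9.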

Additional observations from a re-analysis of the deposited data

How the results depend on the processing

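OCRL kept its call and direction in 15 settings. With probe sets ending in _s_at, _x_at or _a_at left out, OCRL gave no value. PSMB10, PSMD3, PSMC3IP and PSME3IP1 were called in every setting in which they could be fitted, and PSMC6 and PSMD6 in all but the 1.2-fold minimum. Members called lower numbered 12 with the mean of the probe sets, 13 with the most variable probe set, 2 with the 1.2-fold minimum and 4 to 7 with an array left out, and members called higher numbered 8 with trend and robust settings and 2 to 3 with an array left out. With trend and robust settings 2 base genes and 3 core genes were higher and 2 core genes lower. A core gene was lower (1) with array weights, dim probe sets left out, median centring or the most variable probe set. The lid had 5 genes lower with the mean or the most variable probe set and 1 with the 1.2-fold minimum, where the base had 0. The base had 1 to 3 lower with an array left out. The number called over all probe sets also changed between the alternatives, from 1274 to 3586 higher and from 1074 to 3138 lower. The counts of members were not set against the share of all genes in each setting.

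The median log2 difference of proteasome genes was -0.0865 after median centring. Centring lowers every difference by 0.046, and the median over all probe sets moved from -0.0067 to -0.0527. As to the particle medians: core, base, lid and activators had -0.0602, -0.11, -0.18 and -0.12 after median centring. With the mean of the probe sets they were -0.0537, -0.10, -0.25 and -0.14, and with the most variable probe set -0.0552, -0.10, -0.30 and -0.23. With probe sets ending in _s_at, _x_at or _a_at left out they were -0.0188 for the base, -0.24 for the lid and 0.0634 for the activators, over fewer genes.

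Genes of the other pathway lists called lower numbered 17 with array weights, 16 with dim probe sets left out, 18 after median centring, 18 with trend and robust settings, 3 with the 1.2-fold minimum and 4 to 11 with an array left out. Those called higher numbered 9 with suffixed probe sets left out, 9 with the 1.2-fold minimum and 9 to 17 with an array left out. UBA6 changed sign with the mean of the probe sets (-0.0297), the most variable one (-0.28) and suffixed probe sets left out (-0.28). For all probe sets called, higher, and all probe sets called, lower, the numbers were 2939 and 2198, against 1274 and 1074 with suffixed probe sets left out, 1410 lower with the 1.2-fold minimum, 2746 and 2516 after quantile normalisation and 2274 and 3138 after median centring.

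Replicate numbers are shared between the groups, but the labels do not say that they pair the samples, and the deviations of same-numbered arrays correlated at 0.14, 0.12 and -0.01. With the replicate block, 2 members were higher and 5 lower, and 14 and 6 genes of the other lists. PSMC1, PSMD14 and PSME1 then missed the threshold, at adjusted p of 0.0722, 0.0949 and 0.0532, as did FBXW7 (0.0505), SEM1 (0.0611), TXNL1 (0.0656), USP14 (0.0512). So did PSMB2, dimmer probe set (0.0581), PSMD4, dimmer probe set (0.0688), and PSME3, dimmer probe set (0.0824). The number of arrays limits which of the small differences can be called. The cause of these changes was not tested.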
